A study of Mus musculus with 6 samples.

Results

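The genes described here are 7 mouse genes that are known, or suspected, to be deleted or to vary in copy number between substrains or colonies of C57BL/6 mice: Mmrn1, Nnt, Wdfy1, Ide, Fgfbp3, Entpd4 and Btaf1. They were found by symbol in the table deposited for the whole liver transcriptome and account for 8 of its 54446 gene records, because 2 records carry the symbol Nnt. They were selected on prior knowledge of the substrains together with their expression in Fmo5-/- against WT mice in these same libraries, so their levels are given as a description and without a test. The confidence intervals given for them show the uncertainty of the fitted difference between the genotypes and are not read as tests.

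Liver RNA was sequenced from 3 wild-type (WT) and 3 Fmo5-/- mice, with 1 library for each mouse. The study compared the genotypes to find what lies behind the lean phenotype of mice that lack flavin-containing monooxygenase 5. The mice were male, 32 weeks old and fed a standard chow diet. The labels give the strain background of both genotypes only as C57BL/6, and the study's methods describe the WT mice as C57BL/6J and the knockout line as made on that same background. Both were bred at 1 institution and housed in adjacent cages. No source used here says that WT and Fmo5-/- mice were littermates, and colony and genotype therefore cannot be told apart in any comparison below.

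Inbred mice of 1 strain that are bred apart for many generations become substrains, which differ by mutations that arose and became fixed in each colony. In C57BL/6 mice these are known to include a deletion of several exons of Nnt in C57BL/6J and a deletion in C57BL/6JOlaHsd that takes in Mmrn1. Copy number on chromosome 19 is known or suspected to vary among C57BL/6J mice at Ide, Fgfbp3 and Btaf1. Whether 1 segment holds all of these was not examined here. Such differences can accompany a knockout line that is kept as a separate colony, whatever gene was targeted. The libraries hold RNA only, so neither copy number nor a deletion in DNA was measured.

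The 7 genes have unrelated functions. Ide encodes insulin-degrading enzyme, a peptidase of insulin, glucagon and amyloid beta. Btaf1 encodes an ATPase that removes the TATA-binding protein from DNA, and Fgfbp3 a secreted carrier of fibroblast growth factors. Wdfy1 encodes an endosomal protein that takes part in Toll-like receptor signalling. Nnt encodes the transhydrogenase of the inner mitochondrial membrane, which uses the proton gradient to make NADPH. Entpd4 encodes a nucleoside diphosphatase of the Golgi, and Mmrn1 encodes multimerin 1, a carrier of coagulation factor V in platelets and endothelium.

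Of these genes, 3 hold sequence that is present more than once in the reference genome or in the list of genes, and this sets what their counts can show. The sequences below are from GENCODE vM21 transcripts on GRCm38 (mm10), printed 5′ to 3′ on the strand of the gene. No base is in capitals because the copies compared do not differ. The start of the coding sequence of Entpd4 is shown because Entpd4b begins with the same bases. It lies at chr14:69347587-69349139, across a splice junction, and in Entpd4b at chr14:69565837-69567389, both on the plus strand.

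Entpd4 and Entpd4b, first 75 coding bases: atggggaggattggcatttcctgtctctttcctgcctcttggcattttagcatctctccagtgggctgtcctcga

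The start of the coding sequence of Nnt is shown because both records of the gene hold it at the same place, chr13:119404628-119404702 on the minus strand.

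Nnt, both records, first 75 coding bases: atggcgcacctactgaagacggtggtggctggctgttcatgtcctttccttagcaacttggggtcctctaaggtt

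The next 3 sequences are coding exons of Wdfy1, which the annotation holds at 2 places of the gene, 7442 bases apart, on the minus strand. The first exon, of 113 bases, lies at chr1:79717203-79717315 and chr1:79724645-79724757. The exon of 151 bases lies at chr1:79719124-79719274 and chr1:79726566-79726716. The exon of 55 bases lies at chr1:79722214-79722268 and chr1:79729656-79729710.

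Wdfy1, 113-base exon: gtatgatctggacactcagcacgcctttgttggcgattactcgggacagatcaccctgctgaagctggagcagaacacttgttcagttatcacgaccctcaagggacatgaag

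Wdfy1, 151-base exon: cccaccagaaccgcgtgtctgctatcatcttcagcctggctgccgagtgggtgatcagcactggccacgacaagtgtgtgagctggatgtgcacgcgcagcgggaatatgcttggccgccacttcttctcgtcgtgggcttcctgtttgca

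Wdfy1, 55-base exon: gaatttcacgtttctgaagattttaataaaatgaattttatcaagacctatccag

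The reads were 75 bases long, and the copies were therefore compared in windows of that length over all annotated transcripts. Of the 8281 windows of Entpd4, 100% are also found in transcripts of Entpd4b, whose transcript Entpd4b-204 has the same 3589 bases as Entpd4-206, with 0 differences. Of the 5694 windows of Wdfy1, 779 (13.7%) stand at 2 places within Wdfy1 itself. Nnt shares 46.4% of its windows with its second record, and the second record shares 100% with the first. In Ide, Btaf1, Fgfbp3 and Mmrn1, 0 windows are shared with a transcript of another listed gene.

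**Figure D1:**
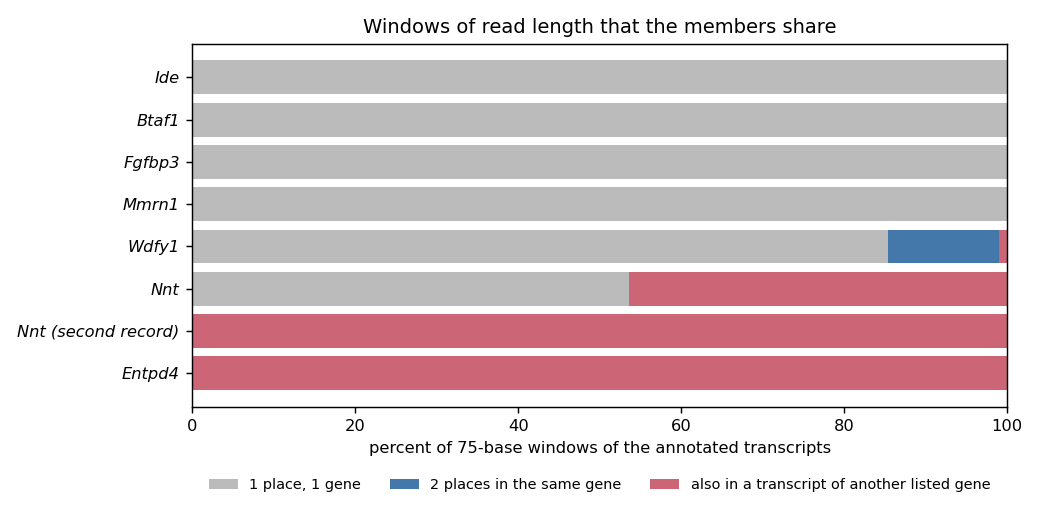
Share of the 75-base windows of each gene's annotated transcripts, in percent, that occur at 1 place (grey), at 2 places of the same gene (blue) or also in a transcript of another listed gene (red). Ide, Btaf1, Fgfbp3 and Mmrn1 are grey throughout, 46.4% of Nnt and 100% of Entpd4 are red, and 13.7% of Wdfy1 is blue.

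The libraries held 44886286 to 52338675 counts on genes, 66.2% to 69.2% of the reads listed, and a further 11.8% to 13.1% in WT and 10.4% to 11.5% in Fmo5-/- mice had more than 1 match in the genome and went uncounted. Unmapped reads were 9.72% to 10.1% in WT and 9.1% to 9.2% in Fmo5-/- mice, and the part of these differences in the levels below was not tested. A count of 0 was taken to allow up to 3 counts, and CPM are counts scaled to the total of the library after its adjustment by TMM. Fmo5, the targeted gene, on chromosome 3, had normalized counts of 39808, 37405 and 30240 in WT and 1071, 1102 and 1194 in Fmo5-/- mice, a log2 fold change of -5.00 (SE 0.14, edgeR adjusted p 2.79e-07). The libraries thus fit their labels. The summed level of 8 hepatocyte markers was 116000 to 146000 CPM in WT and 116000 to 143000 CPM in Fmo5-/- mice. Here a normalized count is the raw count divided by a scaling factor of its library, and fold changes are Fmo5-/- over WT. The p-values set a difference only against the spread between these mice.

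Ide, Btaf1 and Fgfbp3 lie on 1 stretch of chromosome 19, and the mean of each was lower in Fmo5-/- mice. Fgfbp3 (ENSMUSG00000047632.10, chr19:36917550-36919615, minus strand) ends 6.46 kb before Btaf1 (ENSMUSG00000040565.7, chr19:36926079-37012752, plus strand), and Ide (ENSMUSG00000056999.14, chr19:37268743-37337852, minus strand) begins 256.0 kb beyond Btaf1.

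The normalized counts of Ide were 6735, 7773 and 8429 in the 3 WT mice and 4091, 3745 and 3712 in the 3 Fmo5-/- mice. Every Fmo5-/- mouse was thus below every WT mouse. The means were 7646 ± 854 (SD, n = 3) and 3849 ± 210.2 (SD, n = 3), a log2 fold change of -0.99 (SE 0.10, 95% confidence interval -1.22 to -0.76), so that this peptidase gene was 1.99-fold lower. In bulk liver, fewer cells of a type and less RNA per cell cannot be told apart, which holds for every gene here.

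The normalized counts of Btaf1 were 1266, 1518 and 1309 in WT and 957.6, 928 and 951.3 in Fmo5-/- mice. The groups again did not overlap, and the Fmo5-/- mice lay close together. The means were 1364 ± 134.8 (SD, n = 3) and 945.6 ± 15.6 (SD, n = 3), a log2 fold change of -0.53 (SE 0.089, 95% confidence interval -0.73 to -0.33), which is 1.44-fold lower.

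The normalized counts of Fgfbp3, which is scarce in liver, were 40.2, 36.8 and 64.4 in WT and 24.2, 39.5 and 17.7 in Fmo5-/- mice. The second Fmo5-/- mouse lay above the second WT mouse, so that the groups overlapped. The log2 fold change was -0.79 (SE 0.35), and its 95% confidence interval of -1.59 to -0.0010 spans sizes below that of Btaf1 and above that of Ide.

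The levels of Ide and Btaf1 are also compared within each library, as a description, because both genes were chosen with this contrast in view. Ide had 5.32, 5.12 and 6.44 times the counts of Btaf1 in the WT libraries and 4.27, 4.04 and 3.9 times in the Fmo5-/- libraries, a ratio that needs no scaling between libraries. The ratio was lower in every Fmo5-/- mouse than in every WT mouse, and no test of this difference was made. For Fgfbp3 over Btaf1 the ratios overlapped, at 0.0243 to 0.0492 in WT and 0.0186 to 0.0425 in Fmo5-/- mice.

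**Figure D2:**
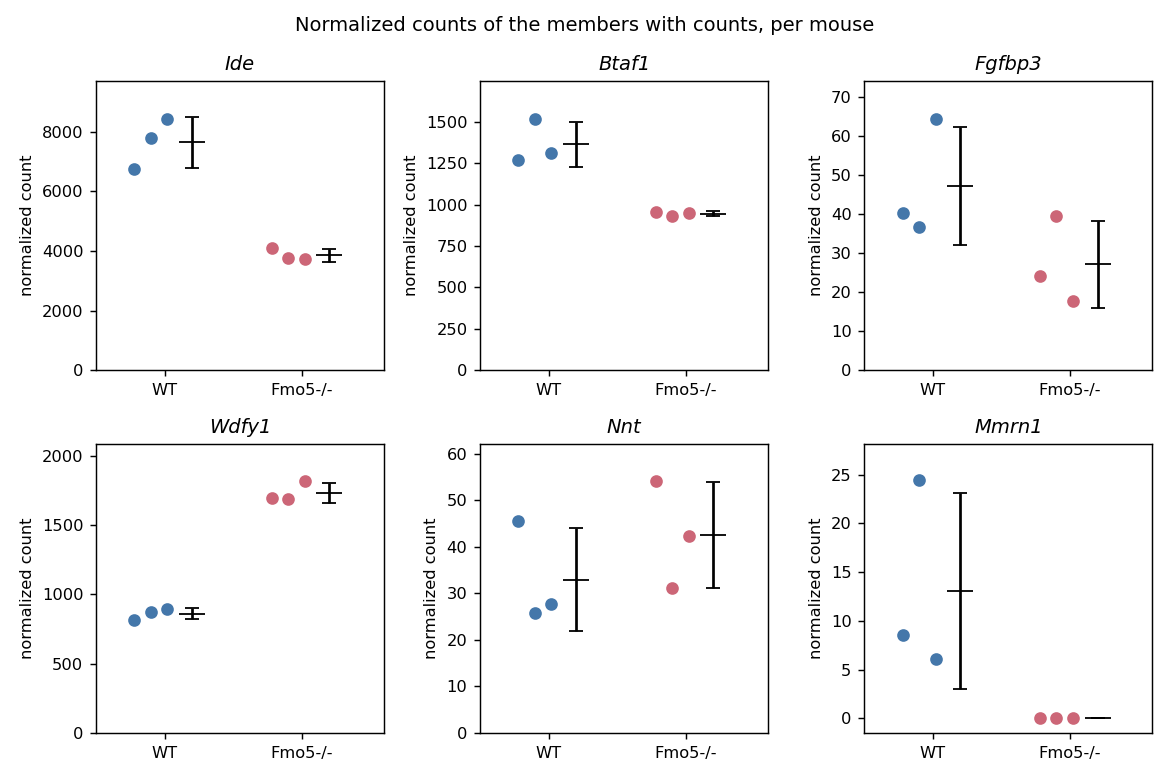
Normalized counts (vertical axes, linear, each gene on its own scale) of the 6 genes with counts, 1 point per mouse, with the mean and SD of the 3 mice of each genotype beside the points. Ide and Btaf1 are lower and Wdfy1 is higher in every Fmo5-/- mouse, Fgfbp3 and Nnt overlap, and Mmrn1 is at 0 in all 3 Fmo5-/- mice.

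The other genes around this stretch are those left after the 3 members were chosen with this contrast in view, and the difference between members and neighbours is therefore a description. Within 500 kb of the 3 genes, 13 others on chromosome 19 passed the filter on low counts, with log2 fold changes from -0.43 to 0.44 and edgeR adjusted p from 0.149 to 0.999. Tnks2, which encodes a tankyrase and lies beside Fgfbp3, had a log2 fold change of -0.14 (adjusted p 0.322). Between Btaf1 and Ide lie 2 tested genes, Cpeb3, which encodes a regulator of translation, with -0.13 (adjusted p 0.580), and March5, which encodes a mitochondrial ubiquitin ligase, with -0.22 (adjusted p 0.149). Kif11, a mitotic kinesin gene on the far side of Ide, had 0.44 (adjusted p 0.302).

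None of the 13 genes passed the test in edgeR, beside 1.37% of all genes tested. Still, 11 of them had a lower mean in Fmo5-/- mice, and 2 had an unadjusted p under 0.05, beside 21.8% of all genes tested. DESeq2 also called 0 of the 13, beside 8.96% of the 15571 genes to which it gave an adjusted p. Normalized counts did not overlap between the genotypes for 4 of the 13, beside 27.4% of all genes, with March5, Tnks2 and Exoc6 lower and Gm38345 higher in Fmo5-/- mice. March5 had normalized counts of 4161, 3977 and 3783 in WT and 3578, 3294 and 3369 in Fmo5-/- mice. The 95% confidence interval of its log2 fold change was -0.39 to -0.044. Those of Btaf1 and Ide, chosen with this contrast in view, were -0.73 to -0.33 and -1.22 to -0.76. Some neighbours had wide intervals that take in the values of both Ide and Btaf1. These were Cyp26a1 (-1.27 to 0.41), Cyp26c1 (-1.37 to 0.56) and Ppp1r3c (-1.125 to 1.123). No test of the difference between March5 and Ide, Btaf1 or its other neighbours was made, and nothing is read from the overlap of the intervals.

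**Figure D3:**
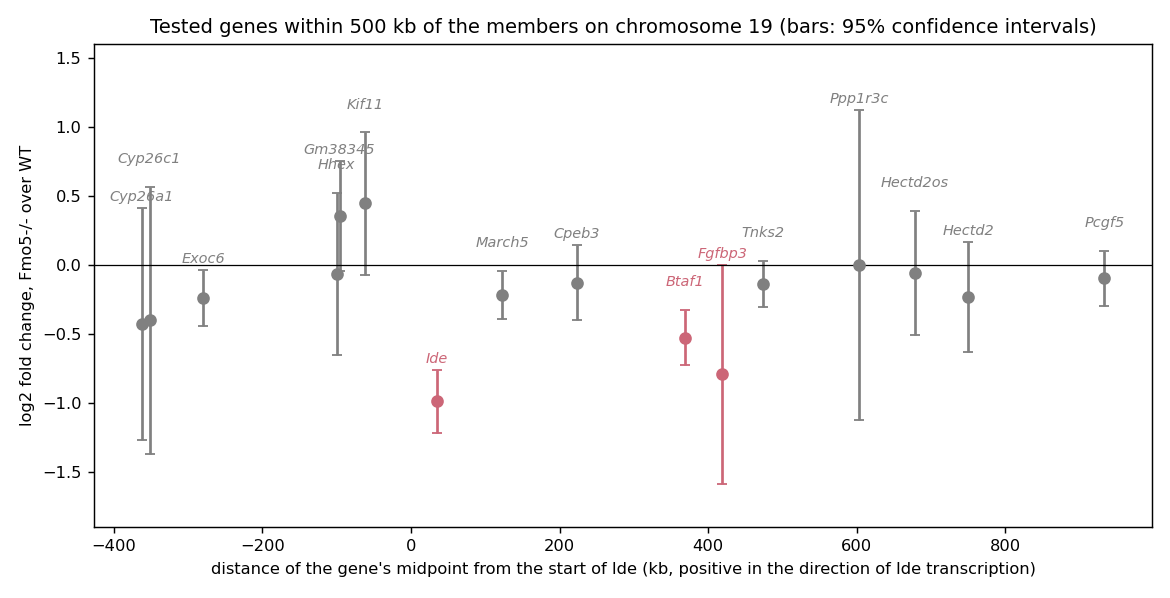
Log2 fold change, Fmo5-/- over WT (vertical axis, bars are 95% confidence intervals), of the tested genes around Ide on chromosome 19 against the distance of the middle of each gene from the start of Ide (kb). Ide (-0.99), Fgfbp3 (-0.79) and Btaf1 (-0.53), in red, lie below the 13 neighbours in grey, which range from -0.43 to 0.44, but were chosen with this contrast in view.

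Wdfy1 (ENSMUSG00000073643.11, chr1:79702262-79776143, minus strand) had the higher expression in Fmo5-/- mice. Its normalized counts were 814.4, 873.7 and 893.6 in WT and 1698, 1688 and 1816 in Fmo5-/- mice, and every Fmo5-/- mouse lay far above every WT mouse. The means were 861 ± 41.2 (SD, n = 3) and 1734 ± 71.3 (SD, n = 3), a fold of 2.02 (log2 fold change 1.01, SE 0.078, 95% confidence interval 0.83 to 1.19). A read whose 75 bases stand at 2 places of the gene maps to both and was not counted, and the counts of Wdfy1 thus come from the rest of the gene.

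Of the 6 genes tested within 500 kb of Wdfy1, edgeR called 0, beside 1.37% of all genes, with 2 at an unadjusted p under 0.05, beside 21.8%, and DESeq2 called 1, Serpine2, beside 8.96%. Mrpl44, a gene of the mitochondrial ribosome that overlaps the start of Wdfy1 by 126 exonic bases, had normalized counts of 982.8, 906.1 and 875.2 in WT and 838.4, 955.5 and 886.5 in Fmo5-/- mice, which overlapped (log2 fold change -0.044, edgeR adjusted p 0.816). Ap1s3, on the other side, had -0.46 (adjusted p 0.591). Serpine2, which encodes a protease inhibitor, had counts of 632, 866 and 959 in WT and 713, 410 and 563 in Fmo5-/- mice and a log2 fold change of -0.72 (SE 0.23, adjusted p 0.135, 3.63e-07 to 0.295 over the alternative settings), in the direction opposite to Wdfy1, so that its call rests on the setting.

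Mmrn1 (ENSMUSG00000054641.10, chr6:60924976-60989378, plus strand) had 8, 22 and 6 counts in the WT libraries and 0 in each of the 3 Fmo5-/- libraries. The WT mice held 36 counts in all, 0.262 CPM, and the limit that 0 counts allow over the 3 Fmo5-/- libraries is 0.0193 CPM, so that expression was at least 13.5-fold lower. The second WT mouse held 22 of the 36 counts, and without it the same fold, computed after the values were seen, was 7.72. The gene is too scarce in liver to have passed the filter on low counts. Exact 95% Poisson intervals, which cover counting error only, were 3.45 to 15.8, 13.8 to 33.3 and 2.2 to 13.1 counts in WT. In each Fmo5-/- library the interval was 0 to 3.69 counts, wider than the 3 counts used for the limits above.

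Markers of the cells that are known to express Mmrn1 were detected in both genotypes. The summed level of 10 liver endothelial markers was 239 to 270 CPM in WT and 253 to 278 CPM in Fmo5-/- mice, and that of 6 platelet and megakaryocyte markers was 8.38 to 11.2 and 10.4 to 12.1 CPM. Of the 10 endothelial and 5 platelet markers tested (Gp9 was not), edgeR called 0, beside 1.37% of all genes, and DESeq2 0, beside 8.96%. At an unadjusted p under 0.05 edgeR gave 1 endothelial and 0 platelet markers, beside 21.8% of all genes.

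Nnt (ENSMUSG00000025453.18, chr13:119335448-119408997, minus strand) had 43, 23 and 27 raw counts in WT and 58, 34 and 43 in Fmo5-/- mice. The normalized counts were 45.5, 25.7 and 27.6 in WT and 54, 31.2 and 42.2 in Fmo5-/- mice, and the groups overlapped. The means were 32.9 ± 11.0 (SD, n = 3) and 42.5 ± 11.4 (SD, n = 3), with a log2 fold change of 0.36 (SE 0.31, 95% confidence interval -0.34 to 1.07). The second record (ENSMUSG00000116207.1, chr13:119335528-119408952, minus strand) had 0 counts in all 6 libraries.

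These counts cannot be taken as a measure of the whole mRNA of Nnt. Of 7037 exonic bases of the first record, 3339 (47.4%) also belong to the second, and a read on bases of 2 genes is set aside as ambiguous. The coding sequence of 2505 bases, in 16 coding exons, is the same in the transcripts Nnt-202 and Nnt-206 of the 2 records. The 3698 bases from which the first record can be counted are in 5 segments of 80, 928, 1506, 1139 and 45 bases, and the 2 longest belong only to transcripts with a retained intron. Those of 80, 928 and 45 bases belong to protein-coding transcripts, the last also to transcripts with a retained intron. On which segments the counts lie was not examined. Of all reads, 3.52% to 3.62% in WT and 3.72% to 3.98% in Fmo5-/- mice were ambiguous, and how many of these came from Nnt was not analysed here. The reference genome was made from C57BL/6J mice, in which the deletion of Nnt is known, and the counts do not bear on whether the genotypes differ in it.

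Paip1, which encodes a protein that binds poly(A)-binding protein, is the nearest tested neighbour of Nnt, 19.6 kb away. It had 2781, 2609 and 2606 counts in WT and 2258, 2313 and 2351 in Fmo5-/- mice, which did not overlap. Its log2 fold change was -0.38 (SE 0.080, edgeR adjusted p 0.0552, and 0.00309 to 0.183 over the alternative settings), so that the call rests on the setting. Mrps30, the nearest tested gene on the other side but beyond the 500 kb used for neighbours, had -0.12 (adjusted p 0.583).

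Entpd4 (ENSMUSG00000095463.8, chr14:69337174-69367270, plus strand) had 0 counts in all 6 libraries, and its copy Entpd4b (ENSMUSG00000022066.16, chr14:69555424-69585520, plus strand), 188.0 kb away, had 1 count, in a WT library. Because every window of read length is shared by the copies, a read from either would map to both places and be left out. The 0 thus gives no level for Entpd4 in either genotype. On its sides, Slc25a37, which encodes an iron carrier of mitochondria, had a log2 fold change of 0.079 (adjusted p 0.799) and Loxl2, which encodes a lysyl oxidase, of 0.57 (adjusted p 0.311).

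Of the 8 records, 5 passed the filter on low counts. Normalized counts did not overlap between the genotypes for 3 of these 5 (Ide, Btaf1 and Wdfy1), which compares with 27.4% of all 16734 genes tested, but the genes were chosen with this contrast in view and nothing is read from the share. Of the 39 genes tested within 500 kb of the members other than Mmrn1, edgeR called 0 at an adjusted p of 0.05, beside 1.37% of all genes tested (0.693% lower and 0.675% higher in Fmo5-/- mice), and 7 had an unadjusted p under 0.05, beside 21.8% of all genes. DESeq2 called 2, Paip1 and Serpine2, beside 8.96% of all genes. The median log2 fold change of these neighbours was -0.096, and that of all genes was 0.0058.

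Per kb of exon that is not shared with another gene, Ide had the highest level, 20.9 ± 2.33 CPM per kb (SD, n = 3) in WT and 10.5 ± 0.574 in Fmo5-/- mice. Wdfy1 was at 2.77 ± 0.133 and 5.59 ± 0.23 CPM per kb, over a length that includes the exons at 2 places where reads could not be counted, and Btaf1 was at 2.72 ± 0.269 and 1.89 ± 0.0312. Fgfbp3 was at 0.545 ± 0.174 and 0.314 ± 0.129, Nnt at 0.183 ± 0.0607 and 0.235 ± 0.0633 over its countable segments, and Mmrn1 at 0.0456 ± 0.035 in WT. The order of Ide before Wdfy1 and Btaf1, and of these before Fgfbp3, exceeded the spread in both genotypes. Fgfbp3 and Nnt in Fmo5-/- mice did not differ beyond their spread, and the order of Wdfy1 and Btaf1 in WT is not given because part of the length of Wdfy1 could not be counted.

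The coefficient of variation of Wdfy1 was 4.79% in WT and 4.11% in Fmo5-/- mice, that of Ide 11.2% and 5.46%, and that of Btaf1 9.88% and 1.65%, where the median of all genes tested was 11.2% and 11.1%. It was larger for the scarce genes, 31.9% and 41.2% for Fgfbp3, 33.3% and 26.9% for Nnt, and 76.8% for Mmrn1 in WT. No mouse of a genotype lay with the other genotype for Ide, Btaf1 or Wdfy1.

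Other genes known to vary between C57BL/6 substrains formed a list of 5: Dock2, Cyfip2, Nlrp12, Crb1 and Entpd4b. Of the 3 that could be tested, edgeR called 0 (1.37% of all genes), with 2 at an unadjusted p under 0.05 (21.8% of all genes), and DESeq2 called 1, Dock2 (8.96% of all genes). Dock2, which encodes a regulator of leukocyte migration, had 176, 129 and 153 counts in WT and 420, 521 and 202 in Fmo5-/- mice, which did not overlap (log2 fold change 1.13, SE 0.30, adjusted p 0.0908, and 6.39e-09 to 0.222 over the alternative settings). Beside it, all 7 Kupffer cell and macrophage markers had a higher mean in Fmo5-/- mice, with sums of 181 to 215 CPM in WT and 284 to 519 CPM in Fmo5-/- mice, and their part in the level of Dock2 was not tested. All 7 markers had an unadjusted p under 0.05, edgeR called 1 (Clec4f) and DESeq2 called 6 (Clec4f, Cd68, Csf1r, Vsig4, Marco and Cd5l), beside the same shares of all genes. Like Dock2, the macrophage marker sum was lowest among Fmo5-/- mice in the third. The sum of the liver endothelial markers was also lowest there (264, 278 and 253 CPM), so the pattern is not particular to macrophage markers.

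Cyfip2, which encodes a regulator of actin, had 78, 66 and 48 counts in WT and 129, 149 and 84 in Fmo5-/- mice (log2 fold change 0.73, adjusted p 0.155). Its normalized counts overlapped. Nlrp12, which encodes a cytosolic immune receptor, had a log2 fold change of -0.040 (adjusted p 0.905), and Crb1 had 1 count in each genotype and was not tested.

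Genes that act with the 7 genes were listed by pathway, 77 of them tested. Of these edgeR called 2, beside 1.37% of all genes, and DESeq2 called 10, beside 8.96% of all genes. The counts at an unadjusted p under 0.05 in the lists that follow stand beside 21.8% of all genes. Of 11 insulin and glucagon receptors and peptidases, the company of Ide, 10 had a lower mean, Mme was called and 3 had an unadjusted p under 0.05. Mme, which encodes neprilysin, another peptidase of amyloid beta, had 3133, 2533 and 1962 counts in WT and 202, 101 and 100 in Fmo5-/- mice. It fell by 4.42 on the log2 scale (SE 0.35, adjusted p 0.00871, and 8.49e-25 to 0.0459 over the alternative settings), and it lies on chromosome 3, as does Fmo5. Those with the highest counts, Ctsb and the glucagon receptor gene Gcgr, had 0.20 (adjusted p 0.340) and -0.072 (adjusted p 0.681). The median of the list was -0.13.

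Of 9 fibroblast growth factors, binding proteins and receptors, listed for Fgfbp3, 7 had a lower mean, edgeR called Fgf21, and 2 had an unadjusted p under 0.05. DESeq2 called 2, Fgf21 and the receptor gene Fgfr2, which had normalized counts of 1551, 1751 and 1636 in WT and 2049, 2044 and 2169 in Fmo5-/- mice (log2 fold change 0.34, SE 0.078, edgeR adjusted p 0.0640). Fgf21, a hormone that the liver secretes, had 148, 91 and 105 counts in WT and 46, 16 and 42 in Fmo5-/- mice, which did not overlap. It fell by 1.89 on the log2 scale (SE 0.37, adjusted p 0.0494), and its adjusted p was 0.0371 to 0.141 when 1 library was left out, under 0.05 only without the second or the third Fmo5-/- mouse. Sdc4 and Fgf1, with the highest counts, had adjusted p of 0.9996 and 0.989, and the median of the list was -0.0092.

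Of 15 genes of mitochondrial NADPH supply and peroxide defence, listed for Nnt, 14 had a lower mean and edgeR called 0, with 6 at an unadjusted p under 0.05 and a median log2 fold change of -0.16. DESeq2 called 2 of them, Prdx3 and Nadk2. Gpx1 and Glud1, with the highest counts, had -0.090 (adjusted p 0.745) and -0.28 (adjusted p 0.220). Nadk2, the mitochondrial NAD kinase gene, had -0.45 (adjusted p 0.0938).

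Of 15 regulators of the TATA-binding protein, listed for Btaf1, 10 had a lower mean and both edgeR and DESeq2 called 0, with 1 at an unadjusted p under 0.05 in edgeR and a median of -0.06. Tbp itself, the protein that BTAF1 acts on, had 0.13 (adjusted p 0.443), Drap1 -0.038 (adjusted p 0.823) and Taf10 -0.080 (adjusted p 0.616). Of 12 endosomal FYVE proteins and Toll-like receptor adaptors, listed for Wdfy1, 7 had a higher mean and both tools called 0, with 2 at an unadjusted p under 0.05 in edgeR and a median of 0.082. Irf3, a transcription factor that these receptors activate, had 0.026 (adjusted p 0.887) and Wdfy3 0.19 (adjusted p 0.296).

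Of 10 nucleoside diphosphatases and their partners, listed for Entpd4, 7 had a higher mean and edgeR called 0, with 5 at an unadjusted p under 0.05 and a median of 0.091. DESeq2 called 4, Entpd1 with a higher mean and Entpd5, Slc35b1 and Slc35a3 with a lower mean in Fmo5-/- mice. Entpd5 and Entpd8, those with the highest counts, had -0.48 (adjusted p 0.0852) and 0.080 (adjusted p 0.680). Of 5 genes of the EMILIN and multimerin family with coagulation factor V, listed for Mmrn1, 3 had a higher mean and edgeR called 0, with 1 at an unadjusted p under 0.05 and a median of 0.17. DESeq2 called 1, Emilin2. F5, the partner of multimerin 1, had -0.12 (adjusted p 0.574) and Emilin1 0.17 (adjusted p 0.492). The counts of Entpd1 and Emilin2 were higher in every Fmo5-/- mouse than in every WT mouse, and so was the summed level of the macrophage markers given above (181 to 215 CPM in WT and 284 to 519 CPM in Fmo5-/- mice), whose part in them was not tested.

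The genes whose levels over the 6 libraries were most like those of each gene were found by the root mean square difference of log2 CPM after centring, among the 11351 or 11352 genes whose normalized count averaged at least 100. Btaf1 was nearest to Morf4l2 (0.0465) and Ssr3 (0.0549), and Ide to Rps3a1 (0.080) and Adgrv1 (0.111). Wdfy1 was nearest to A930005H10Rik (0.103) and Ccdc34 (0.107). The distance takes in the difference between genotypes, with which the members were chosen in view, so this likeness is a description only. Log2 fold changes of the genes nearest to Btaf1 were -0.49 (Morf4l2) and -0.52 (Ssr3). Those nearest to Ide had -1.01 (Rps3a1) and -0.88 (Adgrv1), and those nearest to Wdfy1 1.04 (A930005H10Rik) and 0.97 (Ccdc34). The distances were larger for the scarce genes, with Fgfbp3 nearest to Dntt (0.153) and Asns (0.214), Nnt to Lsm11 (0.178) and Prlr (0.186), and Mmrn1 to Mfsd2a (0.526) and Mup9 (0.565).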

How the data were processed

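Liver RNA of 6 mice was sequenced as single reads of 75 bases from an unstranded library. The authors clipped adapters, aligned the reads to mm10 (STAR 2.6.0c) and had the same program count them per gene. STAR counts reads that map to 1 place and to 1 gene, and the authors deposited these raw counts. The signal columns of the deposited comparison hold the counts divided by 1 size factor per library. They gave the gene list and a check (largest deviation 0.00055%). The authors' log2 columns (fold change and its standard error from DESeq2 1.22.2), the authors' score (Wald statistic) and the authors' p-values with their adjustment were not used. The deposited columns of each strand alone served only as an alternative. For Ide, 47.9% of the counts were on the first strand, and for Wdfy1 47.5%. The annotation release is not given in the sources used here, and positions are from GENCODE vM21, which holds 54409 of the 54446 identifiers (Ide and Btaf1 under a later version).

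The members and lists were chosen with earlier results of these data known. Genes were filtered by filterByExpr (minimum count 10), scaled by TMM and compared, WT with Fmo5-/-, by the robust quasi-likelihood test of edgeR 4.0.16 in R 4.3.3, with Benjamini-Hochberg adjustment over 16734 genes. A call is an adjusted p under 0.05, and SEs and 95% confidence intervals are from the same fit. Log2 CPM used a prior count of 2. Windows were compared over transcripts, since no genome was used here. The script was tested on simulated data.

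Named genes were all members, Fmo5, called neighbours or else the nearest tested gene on each side (not for Mmrn1), the whole list of other substrain genes, and, for each pathway list, called genes and those 2 with the highest mean count, with the 2 genes most like each member in pattern. Genes named besides these (Serpine2, Exoc6, Gm38345, Cyp26a1, Cyp26c1, Ppp1r3c, Fgfr2, Nadk2, Prdx3, Tbp, Entpd1, Slc35b1, Slc35a3, Emilin2, Stc1 and the macrophage markers) were chosen after their values were seen. The pathway lists hold 77 tested genes. Alternatives were DESeq2 1.42.0, other scaling factors, other filters, 1 strand, other window sizes and leaving out each library. Some results are not reported here.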

Additional observations from a re-analysis of the deposited data

How the results depend on the processing

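The log2 fold changes of the 5 members in the fit kept their direction under every setting that included them. The members were chosen with this contrast in view, so this is a description, and Fgfbp3 and Nnt overlapped between the genotypes. Leaving out 1 library gave 0.97 to 1.04 for Wdfy1, -1.07 to -0.91 for Ide, -0.57 to -0.44 for Btaf1, -1.17 to -0.50 for Fgfbp3 and 0.15 to 0.68 for Nnt, and other settings gave 0.96 to 1.07, -1.01 to -0.93, -0.55 to -0.46, -0.99 to -0.79 and 0.12 to 0.37 in that order. For Mmrn1 the WT level, taken as exact, was 7.72-fold to 17.3-fold above the limit in Fmo5-/- mice when 1 WT library was left out. That alternative was added after seeing the data. Fmo5 passed the test throughout. Counts of calls depended on the setting. DESeq2 called 2 neighbours (Paip1 and Serpine2), 1 other substrain gene (Dock2), 10 pathway genes and 1395 of all genes, where edgeR called 0, 0, 2 and 229. With no filter on low counts edgeR called 3, 2, 9 and 1989, adding Stc1 and Cyfip2. With only genes of a mean normalized count of 500 or more it called 0, 0, 1 (Mme) and 53. Counts of 1 strand gave 1 pathway gene, Mme. Leaving out 1 library gave 0 to 1 neighbours, 0 to 1 other substrain genes, 1 to 4 pathway genes and 31 (without Fmo5-/- replicate 1) to 763 (without Fmo5-/- replicate 3) of all genes, and without the latter Paip1 and Dock2 passed. The cause was not tested. Within 250 or 1000 kb, 0 neighbours were called by edgeR. Counts were few for Mmrn1, Fgfbp3 and Nnt, at most 63 a library. For Nnt the bases shared with its second record also went uncounted, and the part of depth was not tested. No paired analysis was possible because the labels give no replicate numbers shared by the genotypes.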
